A study of Mus musculus with 18 samples.

Results

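Mouse embryonic stem cells (mESCs) on soft hydrogels with mid ECM tethering were compared with cells on equally soft hydrogels with low ECM tethering. The comparison was set by the labels: the 3 libraries labelled Soft48 (48 mM AHA, mid) against the 3 labelled Soft16 (16 mM AHA, low), which are 6 of the 18 libraries of the study. Differences are given as mid minus low, so a positive log2 fold change means a higher level at mid AHA. No protein-coding gene passed the test, and the estimated difference was under a fold of 1.19 in all but 2612 of 13438 genes tested.

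Cells of all groups were E14 mESCs, an established line, with the strain label 129m wt. They grew for 24 h in serum+LIF on fibronectin-coated StemBond hydrogels. These are polyacrylamide gels into which the co-factor AHA (6-acrylamidohexanoic acid) is polymerised, and its carboxyl groups anchor the ECM protein, so that the AHA concentration sets how strongly the matrix is tethered. Both groups lay on gels of about 750 Pa, and the study also had a soft group at 80 mM AHA and 3 stiff groups of about 160 kPa at 16, 48 and 80 mM. The cells were 1 line on 1 coating at 1 time point, and the labels do not say that the 3 libraries of a group came from separate cultures. The p-values for genes measure the spread between libraries within groups, which may be technical. That spread was estimated over 17 of the 18 libraries, not over these 6 alone.

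Cells hold on to tethered matrix through integrins, whose cytoplasmic tails gather the focal adhesion plaque and couple it to contractile actin. Tension in this system is known to release MRTF co-activators to SRF and to move YAP into the nucleus, and both drive cytoskeletal and matricellular genes. In mESCs, LIF and STAT3 maintain a network of naive pluripotency factors, while FGF and ERK signalling promotes exit towards the formative epiblast state.

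The 6 libraries held 7205969 to 8789185 gene counts, with 7205969 to 7958801 at low AHA and 8067075 to 8789185 at mid AHA, and these ranges did not overlap. Of these counts, 68.6 to 69.0% at low AHA and 69.6 to 71.7% at mid AHA lay in protein-coding genes, and 7.09 to 7.25% against 6.21 to 6.94% in mitochondrial genes, again without overlap. ERCC spike-in RNAs took 0.607 to 0.725% and overlapped between the groups. In exact two-sided permutation tests of 7 such measures the smallest p was 0.1, the lowest that 3 against 3 libraries can give, and 0.233 after adjustment. Replicates differed by more than counting noise (chi-square per degree of freedom 1.82 to 2.44), and expression is given as CPM (counts scaled to a common library size of 1000000) after TMM scaling over the tested genes. The differences in depth, protein-coding share and mitochondrial share move with the groups, and their part in the results below was not tested.

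The labelled cell type was borne out by its markers. Pou5f1, the POU factor Oct4 that defines pluripotent cells, had 550.0, 515 and 566 CPM in the low AHA libraries and 584, 535 and 542 CPM in the mid AHA libraries. Sox2, its partner, had 352, 326 and 341 CPM at low and 349, 365 and 333 CPM at mid AHA, and Nanog, a homeobox factor of self-renewal, 139.6, 133 and 125 CPM at low and 143, 134 and 125 CPM at mid AHA. The groups overlapped for all 3 genes. For Pou5f1, 14.1% of the exon length lies under exons of a gene on the other strand, and whether reads were counted by strand is not given in the sources used here.

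Of 13438 protein-coding genes tested with edgeR's quasi-likelihood test, 0 (0.0%) had an adjusted p under 0.05, and the smallest adjusted p was 0.227. At an unadjusted p under 0.05 there were 820 genes (6.1% of those tested), 426 higher at mid AHA (3.17%) and 394 lower (2.93%). DESeq2 on the same libraries also called 0 genes, with 605 at an unadjusted p under 0.05. The lowest mid AHA value exceeded the highest low AHA value in 795 genes (5.92%) and the reverse held in 814 genes (6.06%). With libraries scaled to their ERCC counts, 1392 genes (10.4%) had an unadjusted p under 0.05, 1324 higher and 68 lower, so both the number and the balance of directions depended on the scaling. The shares under TMM scaling are the background against which the families below are read.

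**Figure D1:**
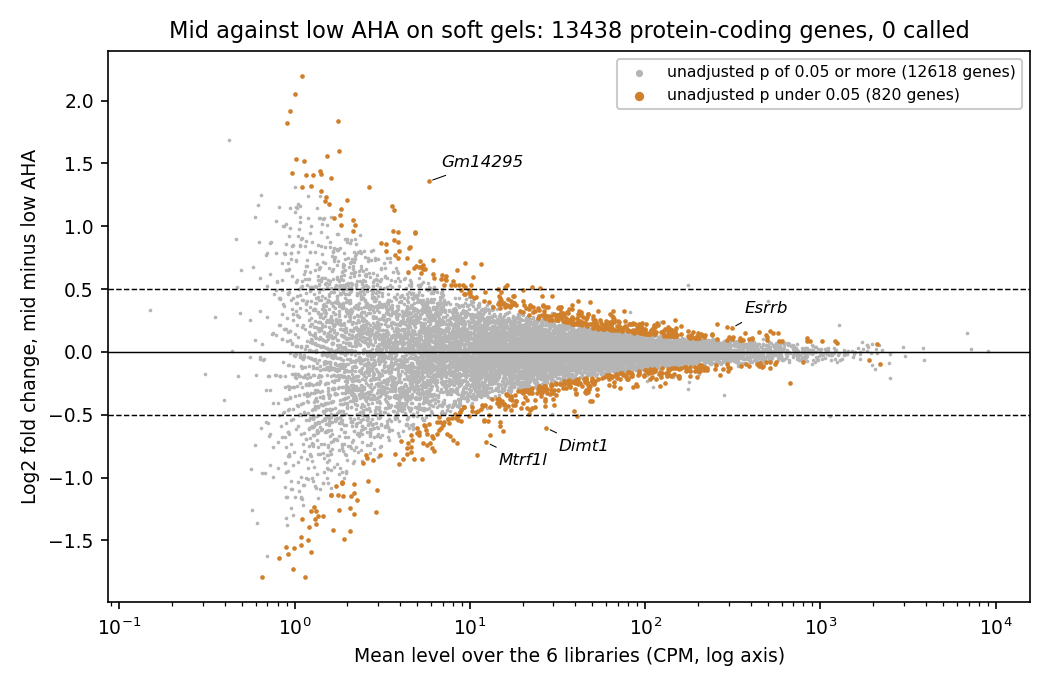
Log2 fold change of mid minus low AHA on soft gels (y axis) against the mean level over the 6 libraries in CPM (log x axis) for 13438 protein-coding genes. The 820 genes with an unadjusted p under 0.05 are orange, dashed lines mark a difference of 0.5, and the differences narrow as the level rises.

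With TMM scaling the differences were small. The median size of the log2 fold change was 0.094 over all tested genes, 0.068 over the 9237 genes with a mean of at least 10 CPM and 0.041 over the 2491 genes with at least 100 CPM. The median log2 fold change itself was -0.0018, with 6647 genes (49.5%) higher at mid AHA. With ERCC scaling the median was 0.11, 10433 genes (77.6%) were higher, and the median size was 0.14 over all genes, 0.12 at 10 CPM or more and 0.11 at 100 CPM or more. With TMM scaling the whole 95% interval lay within 0.5 of no difference, a fold of 1.41 either way, for 8264 genes (61.5%), and within 0.25, a fold of 1.19, for 3822 (28.4%). Among genes with at least 100 CPM, 2311 (92.8%) had an interval within 0.25. A difference over 1 was estimated for 139 genes, and none of the genes with at least 10 CPM was among them. For the 2090 genes whose interval reached past 1, a 2-fold difference in at least 1 direction lay inside the interval at this depth. Libraries of different groups were about as far apart as replicates: the median absolute difference in log2 CPM was on average 0.154 between groups (0.145 to 0.169 over 9 pairs), 0.147 within low and 0.151 within mid AHA.

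The genes with the smallest p-values were led by Dimt1, an 18S rRNA dimethyltransferase (chromosome 13, 106947127 to 106960224, GRCm38). Dimt1 had 33.1, 33.0 and 32.9 CPM at low and 19.6, 20.8 and 24.7 CPM at mid AHA, a log2 fold change of -0.61 (SE 0.14, 95% interval -0.88 to -0.34, adjusted p = 0.227). The groups did not overlap, but 31.9% of its exon length lies under exons of a gene on the other strand. Zfp369, a zinc finger protein, had 45.9, 45.1 and 45.9 CPM at low and 33.0, 37.9 and 28.3 CPM at mid AHA (-0.47, adjusted p = 0.237). Gm14295, a predicted gene (chromosome 2, 176798612 to 176811223) that may share reads with near-identical copies, had 4.81, 3.77 and 1.27 CPM against 7.43, 9.84 and 7.84 CPM (1.36, SE 0.32). The groups were apart in both genes, and the level of Gm14295 was low and spread among the low AHA libraries.

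On the higher side, Apoe, a lipid carrier, had 493, 498 and 466 CPM at low and 563, 554 and 521 CPM at mid AHA (0.17, SE 0.042, adjusted p = 0.237). Akirin2, a nuclear adaptor in proteasome import, had 133, 134 and 136 CPM at low and 172, 165 and 143 CPM at mid AHA (0.25). March5, a mitochondrial ubiquitin ligase, had 70.2, 61.1 and 70.2 CPM at low and 86.1, 92.3 and 74.3 CPM at mid AHA (0.33). In each of these 3 genes mid AHA replicate 3 lay nearest to the low AHA libraries. Of the other genes on the lower side, the splicing factor Prpf18 had a log2 fold change of -0.39 (SE 0.10), the mitochondrial release factor Mtrf1l -0.72 (SE 0.19) and the nucleotide hydrolase Hint1 -0.25 (SE 0.067), each with non-overlapping groups and an adjusted p of 0.266 to 0.308.

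Calls depended on which libraries entered the fit. Without mid AHA replicate 3, 7 genes were called, among them Esrrb (log2 fold change 0.24), Dimt1, March5, Akirin2, Hint1 and Apoe. A fit of the 3 low and 3 mid AHA libraries alone called 8 genes, and mt-Nd2 and Cnpy3 shared the smallest adjusted p there (9.78e-06 in edgeR's test). Among them were Cnpy3, an endoplasmic reticulum chaperone with 310.3, 329 and 308 CPM at low and 219, 247 and 280.1 CPM at mid AHA (-0.34), Mrpl15, a mitochondrial ribosomal protein (186, 189 and 207 CPM at low and 154, 138 and 181 CPM at mid AHA), and Prex1, a Rac exchange factor (44.5, 51.1 and 48.6 CPM at low and 31.3, 32.0 and 38.2 CPM at mid AHA). The groups were apart in all 3 genes. In the fit of 17 libraries, their adjusted p-values were 0.849, 0.849 and 0.475. Their differences were the same in both fits (-0.34, -0.30 and -0.51), but the SE was not. It was 0.051, 0.059 and 0.11 in the fit of the 2 groups alone and 0.17, 0.15 and 0.15 in that of 17 libraries.

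Directions were then described for 41 gene families, of whose 923 listed genes 878 were tested, 44 were below the count filter and 1 was not in the table. None of the 878 was called. The median difference of a family lay within 0.05 of no difference in 29 of the 41 and beyond 0.1 in 6. The sign of the median held in all 13 alternatives other than ERCC scaling in 19 families, 13 positive and 6 negative. Scaling to ERCC counts moved the median of all genes to 0.11, which turned the sign of 21 families, so directions below are relative to the bulk of protein-coding genes. Of the 22 negative medians, 21 became positive under that scaling, all but that of the mitochondrial transcripts. Leaving out 1 of the 6 libraries moved the median by over 1.5 times, or turned its sign, in 39 of the 41 families, 29 of them among the 29 within 0.05, and for the others such values are given below.

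**Figure D2:**
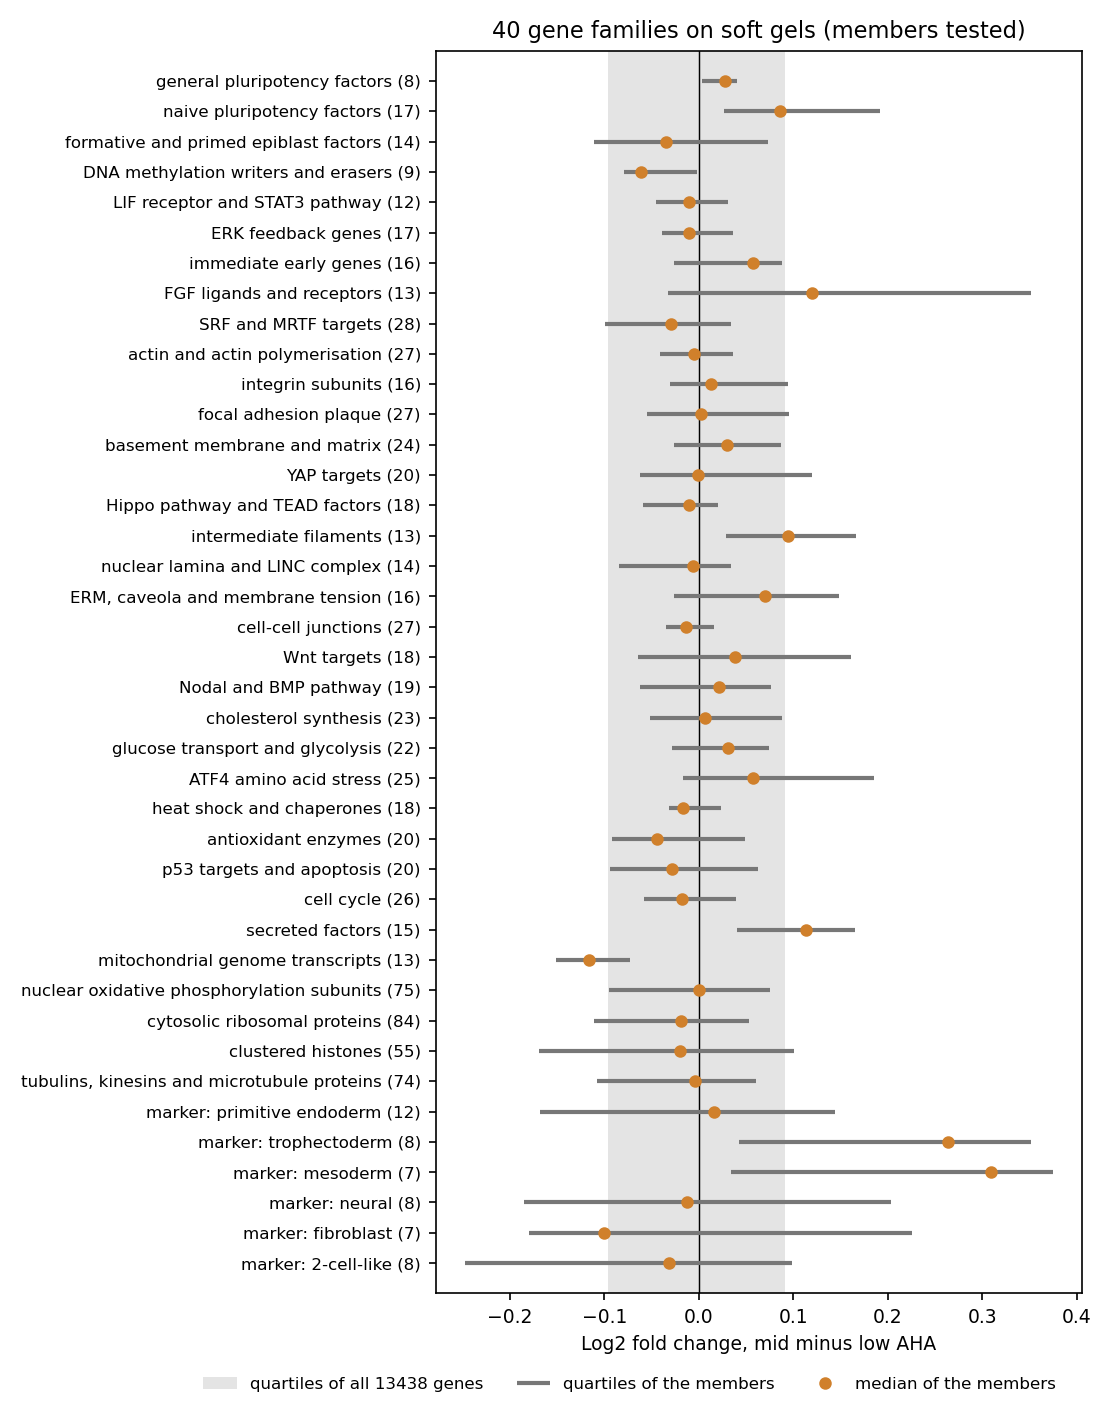
Median (orange points) and quartiles (grey bars) of the log2 fold change of mid minus low AHA for 40 gene families, with the number of members tested in brackets. The shaded band spans the quartiles of all 13438 genes, and the medians of 33 of these families lie inside it.

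Naive pluripotency factors stood mostly higher at mid AHA. Of the 17 members, all tested, 14 were higher and 3 lower, with a median log2 fold change of 0.086 (quartiles 0.026 to 0.19) beside -0.0018 over all genes. At an unadjusted p under 0.05, 6 members were higher and 0 lower, and the same 6 had no overlap between the groups, with mid AHA on top. Per library, the median deviation of the members from their mean over the 6 libraries was 0.011, -0.055 and -0.12 at low and 0.045, 0.069 and 0.038 at mid AHA, which did not overlap. The median was 0.051 without low AHA replicate 3, 0.056 without mid AHA replicate 2 and 0.13 without mid AHA replicate 1.

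Esrrb, an orphan nuclear receptor at the centre of the naive network (chromosome 12, 86361117 to 86521628), had 301, 290.4 and 285 CPM at low and 329.7, 362 and 311 CPM at mid AHA, a log2 fold change of 0.19 (SE 0.048, 95% interval 0.097 to 0.29, adjusted p = 0.237). Tdh, the threonine dehydrogenase that mouse naive cells depend on, had 158, 146 and 144 CPM at low and 179, 176 and 162 CPM at mid AHA (0.20, adjusted p = 0.475). Klf2, a Krüppel-like factor, had 278, 269 and 270.1 CPM at low and 315, 318 and 304 CPM at mid AHA (0.20, adjusted p = 0.592). In these genes the lowest mid AHA library was above the highest low AHA library.

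The T-box factor Tbx3 had 103, 111 and 100.01 CPM at low and 125, 122 and 116 CPM at mid AHA (0.21, SE 0.070). Nr0b1, the nuclear receptor Dax1, had 68.0, 72.6 and 70.1 CPM at low and 80.8, 88.6 and 81.2 CPM at mid AHA (0.25, SE 0.083), and Tfcp2l1, a LIF-responsive factor, 203, 207 and 210.0 CPM at low and 221, 232 and 221 CPM at mid AHA (0.12, SE 0.053). Groups overlapped in the other 11 members. Klf4 had a difference of 0.059 (95% interval -0.073 to 0.19), Nanog 0.015 (-0.11 to 0.14) and Zfp42, the marker Rex1, -0.0053 (-0.11 to 0.10), and the lowest member was Prdm14, a naive-state repressor of FGF signalling (-0.30, SE 0.20). On stiff gels the median of the same 17 genes for mid minus low AHA was 0.0096. For Esrrb the stiff difference was -0.0055 (SE 0.050), and the soft and stiff differences were not shown to differ (interaction adjusted p = 0.649). For high minus low AHA on soft gels, which shares the low AHA libraries, Esrrb had a difference of 0.022 (SE 0.054). The median of the 17 genes there was 0.12, with 16 higher.

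**Figure D3:**
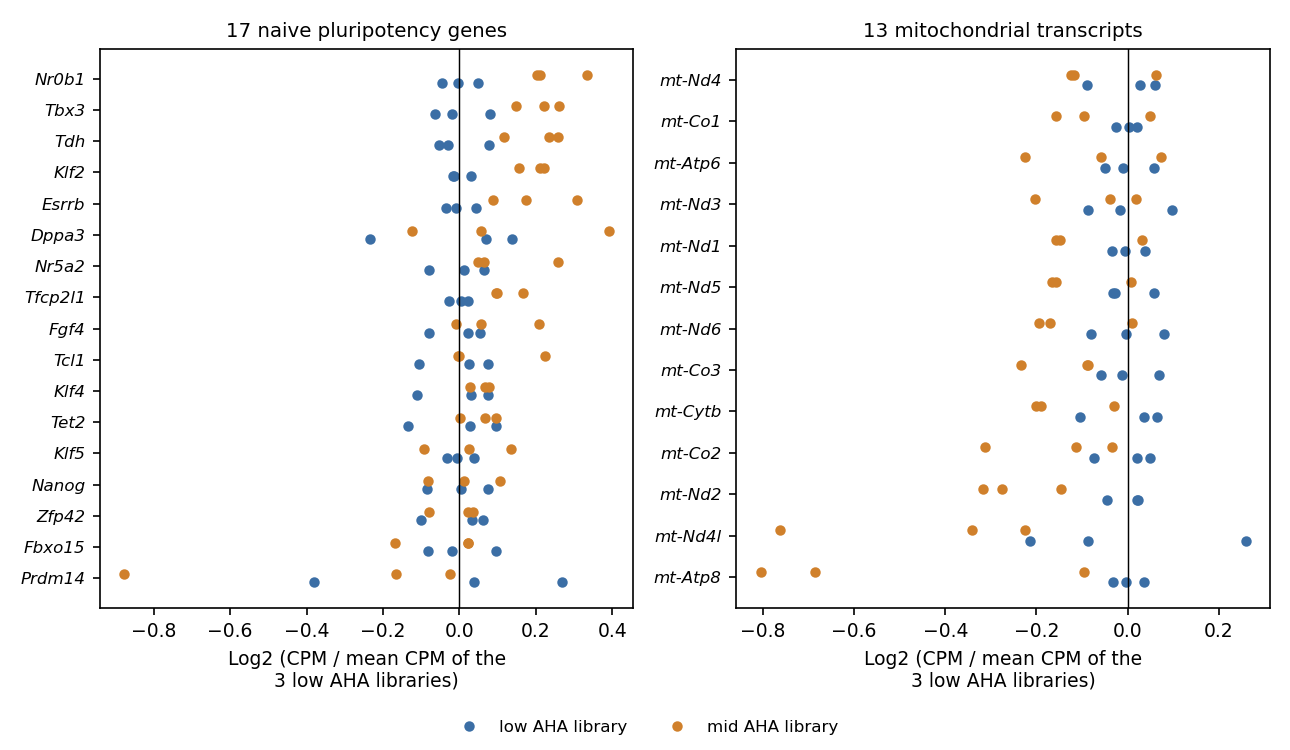
Level of each of 17 naive pluripotency genes (left) and 13 mitochondrial transcripts (right) in each library, as log2 of CPM over the mean of the 3 low AHA libraries, with low AHA libraries in blue and mid AHA libraries in orange. The mid AHA points lie right of the low AHA points in 6 naive genes and left of them in 4 mitochondrial transcripts, and overlap in the others.

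General pluripotency factors are shared by naive and primed cells. Of the 8 members 6 were higher, with a median of 0.028, and 0 had an unadjusted p under 0.05 or groups that did not overlap. The median was -0.0061 without mid AHA replicate 1. The difference from the naive family was not tested. The co-repressor Trim28 was highest (0.052, SE 0.032) and Dppa4 lowest (-0.13, SE 0.11). The 95% interval was -0.057 to 0.11 for Pou5f1 and -0.056 to 0.13 for Sox2, so a difference of 0.25 was outside the interval in both.

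Formative and primed epiblast factors had 5 of 14 members higher and a median of -0.034, which was positive (0.085) under ERCC scaling. At an unadjusted p under 0.05, 2 were higher and 1 lower, and these 3, Sox3, Sox4 and Dnmt3a (-0.12, described with the DNA methylation genes), were also the members whose groups did not overlap. Sox3, a SOXB1 factor of the epiblast and neural plate, had 7.22, 7.92 and 6.35 CPM at low and 12.0, 14.0 and 9.15 CPM at mid AHA (0.70, SE 0.22, adjusted p = 0.518). Sox4 had 54.4, 69.8 and 57.7 CPM at low and 73.8, 72.5 and 72.4 CPM at mid AHA (0.26), and in both genes the mid AHA libraries were the higher ones. Otx2, the factor that directs formative transition, had 21.1, 13.2 and 17.6 CPM at low and 18.0, 17.7 and 13.9 CPM at mid AHA (-0.061, SE 0.17). Pou3f1, the factor Oct6, had 63.0, 64.7 and 61.2 CPM at low and 58.0, 67.1 and 56.4 CPM at mid AHA (-0.060). Fgf5, the classical primed marker, was at only 6.02, 4.15 and 2.72 CPM at low and 2.69, 3.22 and 3.59 CPM at mid AHA (-0.43, SE 0.35). The groups overlapped in Otx2, Pou3f1 and Fgf5.

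DNA methylation writers and erasers had 2 of 9 members higher and a median of -0.061 (quartiles -0.080 to -0.0021), which turned positive (0.050) with ERCC scaling. Dnmt3a, a de novo methyltransferase, had 196, 185 and 184 CPM at low and 182, 161 and 175 CPM at mid AHA (-0.12, SE 0.057). Uhrf1, which recruits the maintenance enzyme, had 361, 359.7 and 364 CPM at low and 335, 346 and 341 CPM at mid AHA (-0.086), and the cofactor Dnmt3l 460.2, 459 and 458 CPM at low and 452, 421 and 429.7 CPM at mid AHA (-0.080). The mid AHA libraries lay below the low AHA libraries in all 3. Dnmt3b had 702, 658 and 684 CPM at low and 669.8, 665 and 605 CPM at mid AHA with overlap (-0.076, 95% interval -0.15 to 0.00019), and the dioxygenases Tet1 and Tet2 had differences of -0.055 and 0.055. Without mid AHA replicate 3 the family's median was -0.036. Adjusted p-values in this family were at least 0.793. For mid minus low AHA on stiff gels the family's median was 0.064, with 7 of 9 members higher. Whether the family differed between soft and stiff gels was not tested.

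The LIF and ERK feedback families had medians within 0.05 of no difference. In the LIF receptor and STAT3 pathway 4 of 12 members were higher (median -0.011, from Il6st (-0.12) to Jak2 (0.11)), and Socs3, its feedback inhibitor, had 91.7, 85.4 and 99.5 CPM at low and 89.8, 99.8 and 76.1 CPM at mid AHA (-0.061). ERK feedback genes had 7 of 17 higher (median -0.011, from Etv1 (-0.51) to Ier3 (0.28)). Dusp6, the ERK phosphatase, was at 67.2, 74.9 and 79.1 CPM at low and 71.1, 73.7 and 70.9 CPM at mid AHA (-0.039, 95% interval -0.20 to 0.12), and Spry4 at 0.036 (-0.085 to 0.16). The groups overlapped in both. The signs of both medians turned in other fits, so no direction is given for these families.

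Immediate early genes had 11 of 16 tested members higher (median 0.058, and 0.026 without low AHA replicate 3). The largest was Nr4a1, an orphan nuclear receptor induced by serum, with 62.0, 59.0 and 54.5 CPM at low and 76.3, 71.0 and 66.2 CPM at mid AHA (0.29, SE 0.089, adjusted p = 0.518) and groups apart. Fos and Egr1 had differences of 0.088 (SE 0.21) and -0.11 (SE 0.13), Myc 0.048 (SE 0.070), and Fosb was lowest (-0.27). FGF ligands and receptors had 9 of 13 higher with a median of 0.12 and wide quartiles (-0.033 to 0.35), and the median was 0.20 without low AHA replicate 3. Fgf13, an intracellular FGF homologue, had 12.8, 7.92 and 9.80 CPM at low and 14.4, 14.0 and 14.1 CPM at mid AHA (0.48, SE 0.19), and Fgfr3 had the largest difference (0.59, SE 0.34).

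Among Wnt targets 10 of 18 were higher (median 0.039, from Nkd1 (-0.27) to Cdx2 (0.42)), and Axin2, the negative feedback target, was at 42.1, 37.7 and 45.9 CPM at low and 42.7, 42.4 and 44.9 CPM at mid AHA (0.047). Nodal and BMP genes had 10 of 19 higher (median 0.022, up to Smad6 (0.20)). Foxh1, the SMAD partner of Nodal signalling, was the lowest of them, with 51.6, 52.1 and 51.5 CPM at low and 42.5, 40.6 and 45.8 CPM at mid AHA (-0.27, SE 0.10, adjusted p = 0.612), and the groups did not overlap. The Nodal inhibitors Lefty1 and Lefty2 had differences of 0.087 (SE 0.16) and 0.14 (SE 0.16), and the BMP target Id1 0.077 (SE 0.076).

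The families closest to tethering itself showed no common direction. Integrin subunits, the matrix receptors, had 8 of 16 tested members higher and a median of 0.013, with 0 at an unadjusted p under 0.05 in either direction. Itgb1, the common beta subunit, had 342, 360.0 and 367 CPM at low and 355, 365 and 398 CPM at mid AHA (0.064, 95% interval -0.023 to 0.15). The fibronectin receptor subunits Itga5 and Itgav had -0.020 (-0.14 to 0.10) and -0.041 (-0.18 to 0.10). The groups overlapped in all 3. The ends of the family were Itga8 (0.38) and Itga7 (-0.24).

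Focal adhesion plaque genes had 14 of 27 higher (median 0.0023), with 3 higher and 0 lower at an unadjusted p under 0.05. Zyx, the tension-sensitive LIM protein zyxin, had 136, 139.8 and 145 CPM at low and 165, 147 and 159 CPM at mid AHA (0.16, SE 0.064, adjusted p = 0.674). Tns1, the actin-binding tensin, had 38.1, 35.1 and 38.3 CPM at low and 43.5, 47.4 and 46.4 CPM at mid AHA (0.30, SE 0.11), and both genes were higher in every mid AHA library. Tln2, a talin, had 85.3, 106 and 89.7 CPM at low and 102, 109 and 107 CPM at mid AHA with overlap (0.18). Vcl, the talin-binding vinculin, had 245, 272 and 263 CPM at low and 244, 255 and 243 CPM at mid AHA (-0.073, 95% interval -0.17 to 0.022), though 25.5% of its exon length lies under a gene on the other strand, and Pxn, the scaffold paxillin, had 0.097 (-0.065 to 0.26). The lowest member was Parva (-0.13).

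Basement membrane and matrix genes had 16 of 24 tested members higher (median 0.030, from Col4a6 (-0.41) to Lox (0.54)). Col18a1, a basement membrane collagen, had 803, 816 and 807 CPM at low and 850.0, 885 and 889 CPM at mid AHA (0.11, SE 0.037, adjusted p = 0.524), with groups apart. Col4a1 had 292, 288 and 286 CPM at low and 285, 308 and 346 CPM at mid AHA (0.12) with overlap. The cells' own fibronectin gene Fn1 was at 1035, 1084 and 1060.4 CPM at low and 1016, 1148 and 1062 CPM at mid AHA (0.021, 95% interval -0.052 to 0.093), one of the narrowest intervals of the chosen genes. Lama1, Sparc and Col1a1 had differences of 0.082, 0.022 and 0.077.

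Actin and actin polymerisation genes had 12 of 27 higher (median -0.0047, up to Arpc1a (0.14)). Actb, cytoplasmic actin, was at 3053, 3032 and 3170.2 CPM at low and 3082, 2907 and 3054 CPM at mid AHA (-0.033, 95% interval -0.092 to 0.025), the narrowest interval of all chosen genes. Cfl2, the muscle-type cofilin, had 27.9, 29.8 and 31.2 CPM at low and 22.6, 25.9 and 23.5 CPM at mid AHA (-0.31, SE 0.13) without overlap.

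SRF and MRTF targets had 12 of 28 higher, 2 higher and 1 lower at an unadjusted p under 0.05, and a median of -0.029 (quartiles -0.099 to 0.034) whose sign turned under ERCC scaling and in 1 of the other 13 alternatives. Cnn1, smooth muscle calponin, had 21.3, 27.7 and 20.3 CPM at low and 19.4, 13.6 and 18.95 CPM at mid AHA (-0.41, SE 0.15) with groups apart, and Fhl2 was the highest member (0.23). Myl9, a myosin light chain, had 13.0, 12.3 and 12.0 CPM at low and 8.69, 11.1 and 9.80 CPM at mid AHA (-0.34, SE 0.20), and the mid AHA libraries were the lower ones. Srf itself had 124, 124 and 121 CPM at low and 135, 117 and 119 CPM at mid AHA (0.0089, 95% interval -0.12 to 0.14). Flnc, a filamin, had a difference of -0.025 (-0.15 to 0.10), and the groups overlapped in both.

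YAP targets had 10 of 20 tested members higher and a median of -0.0012, whose sign turned in 7 of 13 alternatives. Ccn1, the matricellular protein Cyr61, had 147, 147 and 163 CPM at low and 143, 133 and 143 CPM at mid AHA (-0.13, SE 0.060), all mid AHA libraries lower. Ccn2, its relative Ctgf, had 80.8, 71.7 and 83.7 CPM at low and 84.7, 94.996 and 80.6 CPM at mid AHA with overlap (0.14, SE 0.078), with 23.2% of its exon length under a gene on the other strand. Ankrd1, the highest member, was near 1 CPM and its interval was wide (0.50, -0.56 to 1.58). In the Hippo pathway 9 of 18 members were higher (median -0.0098), from the kinase Lats2, at 28.1, 34.7 and 31.6 CPM at low and 24.97, 26.7 and 27.5 CPM at mid AHA (-0.26, SE 0.12), to Tead4 (0.19).

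Intermediate filament genes stood higher in 11 of 13 members (median 0.094, quartiles 0.029 to 0.17). Per library, their median deviation was -0.046, -0.0063 and -0.017 at low and 0.045, 0.047 and 0.046 at mid AHA. The family's median was 0.046 without low AHA replicate 1 and 0.062 without mid AHA replicate 1. Vim, vimentin, had 447, 461 and 498 CPM at low and 523, 491 and 533 CPM at mid AHA (0.14, SE 0.042, adjusted p = 0.475), and 1 mid AHA library lay below the highest low AHA library. The simple epithelial keratins Krt8 and Krt19 had 0.061 (95% interval -0.030 to 0.15) and 0.094 (-0.033 to 0.22), and the ends of the family were Krt7 (0.19) and Krt10 (-0.24).

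Nuclear lamina and LINC genes had 7 of 14 higher (median -0.0065, from Syne3 (-0.19) to Syne1 (0.24)), and Lmna, which scales with tissue stiffness, was at 118, 109 and 118 CPM at low and 122, 115 and 114 CPM at mid AHA (0.031). ERM, caveola and membrane tension genes had 11 of 16 tested members higher (median 0.070, 0.039 without low AHA replicate 2 and 0.040 without mid AHA replicate 1). Anxa1, an annexin, had 67.2, 70.9 and 70.1 CPM at low and 78.9, 71.7 and 85.6 CPM at mid AHA (0.18, SE 0.080), while Cav1 was highest (0.34, SE 0.27) and S100a11 lowest (-0.12). Both Anxa1 and Cav1 were higher in every mid AHA library. Cell-cell junction genes had 11 of 27 higher (median -0.014, 0.098 under ERCC scaling, up to Cldn3 (0.23)). Cdh1, E-cadherin, was at 781, 776 and 801 CPM at low and 815, 794 and 763 CPM at mid AHA (0.0082, 95% interval -0.065 to 0.082), and Ctnnd1, p120-catenin, at 24.9, 22.8 and 25.4 CPM at low and 20.1, 15.0 and 18.5 CPM at mid AHA (-0.44, SE 0.15), the latter without overlap.

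**Figure D4:**
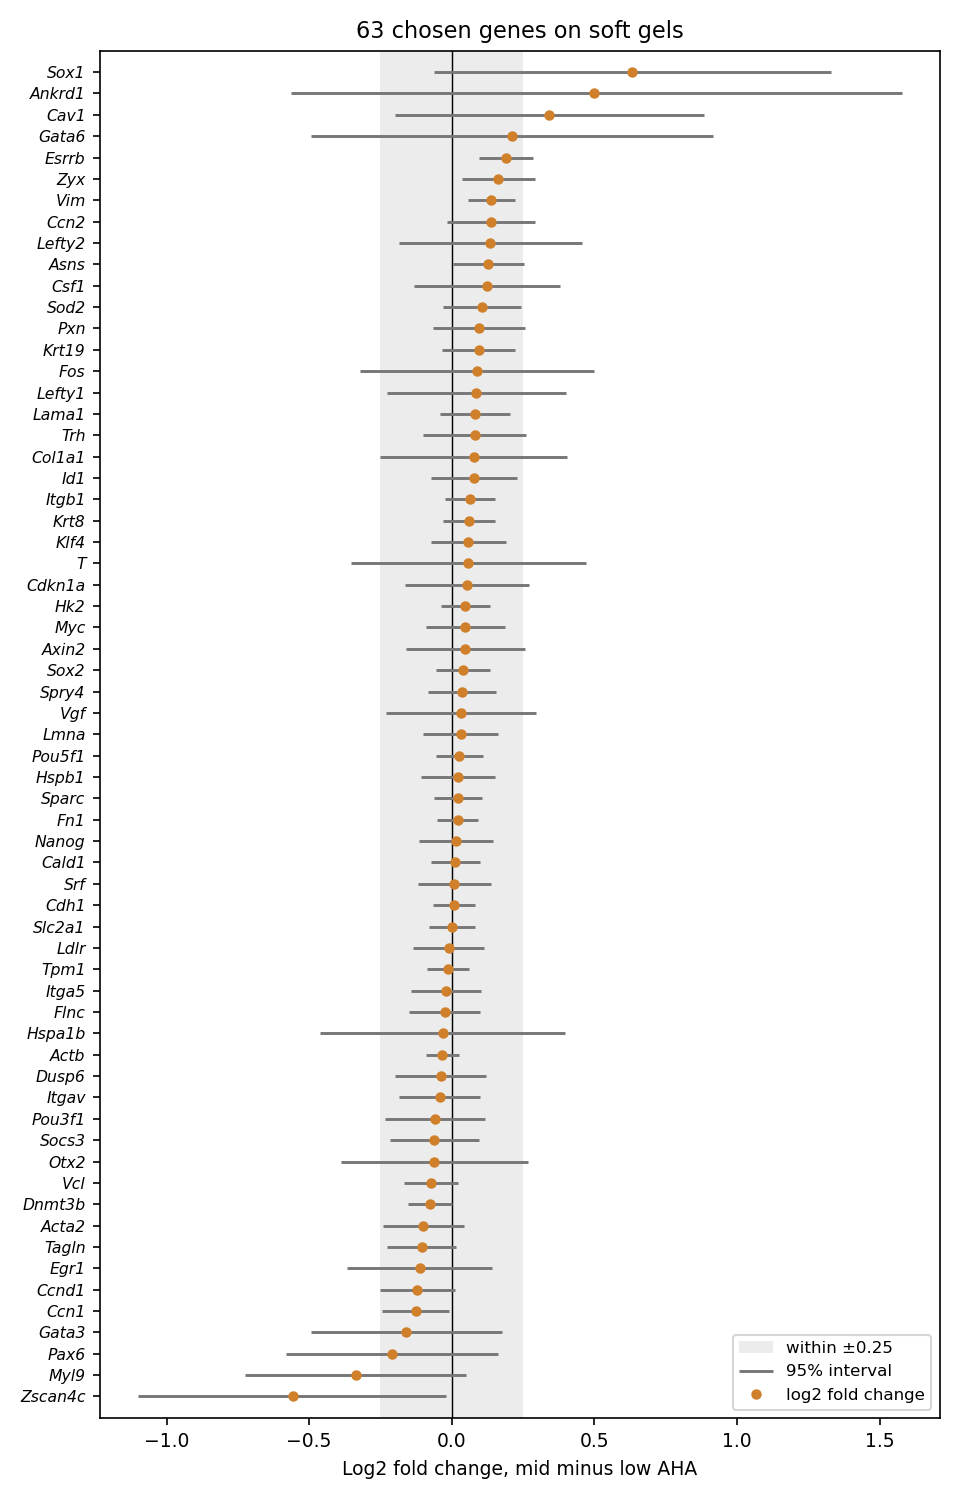
Log2 fold change of mid minus low AHA (orange points) with 95% intervals (grey bars) for 63 of the 64 genes chosen from the families, ordered by the estimate, with the band within 0.25 of no difference shaded. The whole interval lies inside the band for 36 of the genes drawn and within 0.5 for 56, and the widest intervals belong to genes of low level such as Ankrd1.

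Of the 64 genes chosen from the families, 41 were higher and 23 lower, 6 had an unadjusted p under 0.05, and the smallest adjusted p was 0.237. The 95% interval lay within 0.25 in 37 and within 0.5 in 57 of them.

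Secreted factors stood higher in 13 of 15 members, with a median of 0.11 (quartiles 0.040 to 0.17). Spp1, osteopontin, had 172, 177 and 181 CPM at low and 200.3, 194 and 197 CPM at mid AHA (0.16, SE 0.056, adjusted p = 0.524), and Pdgfa, a platelet-derived growth factor chain, 84.0, 84.5 and 71.9 CPM at low and 92.0, 92.8 and 85.8 CPM at mid AHA (0.17). The groups were apart in both. Csf1, Vgf and Trh had differences of 0.12, 0.032 and 0.080 with overlap. The ends of the family were Inhba, at 0.802, 0.566 and 1.45 CPM at low and 2.37, 1.97 and 1.47 CPM at mid AHA (1.02, SE 0.56), and Timp1 (-0.25).

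Genes of the ATF4 amino acid response had 16 of 25 higher (median 0.057), with 5 higher and 1 lower at an unadjusted p under 0.05. The median was 0.028 without low AHA replicate 1, 0.11 without low AHA replicate 2 and 0.087 without mid AHA replicate 1. The median deviation of its members per library was -0.026, -0.024 and -0.084 at low and 0.038, 0.045 and 0.058 at mid AHA, without overlap, as was the summed level of the trophectoderm markers given below. The serine synthesis enzyme Psat1 had 122, 124 and 121 CPM at low and 142, 137 and 138 CPM at mid AHA (0.19, SE 0.065, adjusted p = 0.524). Mthfd2, of mitochondrial folate metabolism, had 79.4, 73.7 and 74.96 CPM at low and 86.0, 83.4 and 96.1 CPM at mid AHA (0.22), and both were higher in every mid AHA library. Asns, asparagine synthetase, had 135, 155 and 138 CPM at low and 154, 155 and 159 CPM at mid AHA with overlap (0.13, 95% interval 0.0056 to 0.25). Slc3a2, the heavy chain of amino acid transporters, ran the other way at 225, 217 and 213 CPM at low and 204, 195 and 201 CPM at mid AHA (-0.12), and the ends of the family were Chac1 (0.36) and Slc7a11 (-0.16).

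Other metabolic and stress families had medians within 0.05 of no difference. Cholesterol synthesis had 13 of 23 higher (median 0.0063, from Nsdhl (-0.15) to Msmo1 (0.19)). Glucose transport and glycolysis had 14 of 22 higher (median 0.031, from Eno2 (-0.21) to Bnip3 (0.38)), and the transporter Slc2a1 had 510.1, 520.2 and 539 CPM at low and 525, 539 and 508 CPM at mid AHA (0.0022). In heat shock and chaperone genes, 8 of 18 were higher (median -0.017). Hspe1, the mitochondrial co-chaperonin, had 79.4, 78.1 and 79.1 CPM at low and 60.7, 59.6 and 73.2 CPM at mid AHA (-0.29, SE 0.085, adjusted p = 0.407), without overlap, and the ends were Bag3 (0.23) and Hspa1a (-0.47).

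Antioxidant enzymes had 7 of 20 higher (median -0.044, 0.069 under ERCC scaling), from Slc7a11 (-0.16) to Sod2, the mitochondrial superoxide dismutase (0.11, 95% interval -0.029 to 0.24). Targets of p53 had 9 of 20 higher (median -0.029, from Fas (-0.40) to Eda2r (0.16)), with Cdkn1a, the CDK inhibitor p21, at 0.054 (-0.16 to 0.27). Cell cycle genes had 12 of 26 higher and a median of -0.018, turned by ERCC scaling and by 1 other alternative. Ccne1, cyclin E1, had 306, 309 and 319 CPM at low and 297, 265 and 281 CPM at mid AHA (-0.15, SE 0.047, adjusted p = 0.518), and Ccne2 20.3, 23.0 and 22.3 CPM at low and 16.8, 17.5 and 18.5 CPM at mid AHA (-0.32). In both genes every mid AHA library was the lower, and Ccnd1 (-0.12, 23.4% of its exon length under a gene on the other strand) did not overlap either. E2f1 was the highest member (0.17). On stiff gels the cell cycle median for mid minus low AHA was 0.052, with 19 of 26 members higher, and the difference between gels was not tested.

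Transcripts of the mitochondrial genome were the only family with all members on one side. All 13 were lower at mid AHA, with a median of -0.12 (quartiles -0.15 to -0.073), which was -0.0018 when libraries were scaled to ERCC counts. Since these transcripts are cut from the same precursors, their common direction is not 13 separate observations. mt-Nd2, a complex I subunit, had 735, 733 and 701 CPM at low and 597, 654 and 580.2 CPM at mid AHA (-0.24, SE 0.090, adjusted p = 0.719 in the fit of 17 libraries), and mt-Co3, of complex IV, 148, 136 and 140.1 CPM at low and 120.3, 133 and 133 CPM at mid AHA (-0.13). The mid AHA libraries were below the low AHA libraries in both. The most abundant, mt-Co1, overlapped at 4063, 3935 and 4014 CPM at low and 3591, 4145 and 3748 CPM at mid AHA (-0.065, SE 0.095). In 8 of the 13, mid AHA replicate 2 lay within or above the range of the low AHA libraries. The family's median was -0.14 for mid minus low AHA on stiff gels. Nuclear oxidative phosphorylation subunits had 38 of 75 higher and a median of 0.00025, with 6 higher and 6 lower at an unadjusted p under 0.05, from Cox7a1 (-0.65) to Ndufb4 (0.52).

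The ribosomal protein, histone and microtubule families had medians within 0.05 of no difference. Cytosolic ribosomal proteins had 35 of 84 higher (median -0.019, 0.091 under ERCC scaling, from Rpl23a (-0.70) to Rpl39l (0.44)). Rplp0, of the ribosomal stalk, had 355, 348 and 356 CPM at low and 399, 396 and 384 CPM at mid AHA (0.15, SE 0.044), and Rps14 227, 235 and 253 CPM at low and 291, 279 and 265 CPM at mid AHA (0.22, SE 0.080), both apart, though pseudogene copies make their counts uncertain. Clustered histones had 24 of 55 tested members higher (median -0.020, from Hist1h2ag (-0.82) to Hist1h3h (0.57)) and share sequence with one another. Tubulins, kinesins and microtubule proteins had 36 of 74 higher (median -0.0038, from Tuba3b (-0.41) to Kif19a (0.53)).

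Marker lists of other cell types were also summed, and in bulk samples fewer cells of a type and less RNA per cell cannot be told apart. Trophectoderm markers had 7 of 8 tested members higher (median 0.26, and 0.17 without low AHA replicate 3), and their summed level was 112 to 119.6 CPM at low and 122 to 142 CPM at mid AHA. Hand1, shared with the mesoderm list, had 27.7, 31.9 and 41.2 CPM at low and 44.1, 39.0 and 44.6 CPM at mid AHA with overlap (0.34, SE 0.12, adjusted p = 0.524). Cdx2 (0.42) was at 1.63 to 3.76 CPM over the 6 libraries, Gata3 was lowest (-0.16), and Elf5 was below the count filter.

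Mesoderm markers had 6 of 7 higher (median 0.31, from Tbx6 (-0.054) to Mixl1 (0.83)), with sums of 63.6 to 75.7 and 71.4 to 86.2 CPM, which overlap, and T, brachyury, was at 0.058 (SE 0.21). The mesoderm median was 0.21 without low AHA replicate 1, 0.082 without low AHA replicate 2 and 0.12 without mid AHA replicate 1. Primitive endoderm markers had 6 of 12 higher (median 0.017, from Hnf4a (-0.73) to Amn (0.29)), with Gata6 at 4.21, 2.64 and 3.09 CPM at low and 4.27, 3.76 and 3.43 CPM at mid AHA. Neural markers had 4 of 8 higher (median -0.013, from Map2 (-0.29) to Sox1 (0.63) among those with a mean of at least 1 CPM), and Pax6 was at -0.21. Their sums, the highest of the 6 marker lists, were 342 to 371 and 346 to 363 CPM, which overlap, and most of each came from Nes, nestin (194, 217 and 221 CPM at low and 205, 206 and 210.3 CPM at mid AHA), and Tubb3, a neuronal tubulin (85.1, 92.8 and 87.1 CPM at low and 91.2, 92.7 and 92.8 CPM at mid AHA). Fibroblast markers had 3 of 7 higher (median -0.10, from Thy1 (-0.68) to Postn (0.40)), with sums of 126 to 151 and 126 to 159 CPM, and Lum was at 0 in all 6 libraries. The fibroblast median ran from -0.26 to 0.11 as single libraries were left out. Markers of 2-cell-like cells had 4 of 8 higher (median -0.031, up to Zscan4e (0.13)), and Zscan4c, which such cells switch on in bursts, had 8.22, 4.71 and 11.3 CPM at low and 4.58, 4.65 and 7.19 CPM at mid AHA with overlap (-0.56, SE 0.27). The higher summed level of the trophectoderm markers moved with the naive, intermediate filament, secreted factor and ATF4 families, whose median deviations were higher in every mid AHA library, and with the DNA methylation and cell cycle families, where they were lower in every one, and its part in those results was not tested.

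On stiff gels the same step from 16 to 48 mM AHA was of similar size with TMM scaling. It gave 0 called genes (0.0%) and 671 at an unadjusted p under 0.05 (4.99%) in edgeR's test, with a smallest adjusted p of 0.753 and a median size of the log2 fold change of 0.092. The interaction, soft minus stiff of the mid minus low difference, gave 0 called genes (0.0%) and 760 at an unadjusted p under 0.05 (5.66%), with a smallest adjusted p of 0.407. With ERCC scaling 365 genes had an unadjusted p under 0.05 on stiff gels, 166 higher and 199 lower, and 835 in the interaction, 749 higher and 86 lower, against 372 higher and 388 lower with TMM scaling. The soft and stiff comparisons share no library. Of all genes, 49.0% had the same sign in both, and of the 53 genes with an unadjusted p under 0.05 in both, 26 had the same sign.

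The next step on soft gels, to 80 mM AHA, is set beside the first for 7 of the chosen genes, those called between high and low AHA (34 of 13438 genes, 0.253%). That comparison shares the low AHA libraries with this one, and the high AHA group rests on 2 libraries. Tagln, the SRF target transgelin, had 132, 146 and 148 CPM at low, 129, 126 and 141 CPM at mid and 196 and 181 CPM at high AHA. Cald1, caldesmon, had 452, 519 and 537, then 489, 533 and 502 and then 648 and 649 CPM. Acta2, smooth muscle actin, had 85.3, 95.4 and 103, then 85.5, 88.0 and 91.5 and then 123 and 123 CPM, and Tpm1, tropomyosin, 741, 785 and 831, then 772, 778 and 787 and then 936 and 908 CPM. In all 4 genes the low and mid AHA libraries overlapped and both high AHA libraries lay above them.

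For these genes the mid minus low difference was -0.11 (95% interval -0.23 to 0.014) in Tagln, 0.013 (-0.074 to 0.099) in Cald1, -0.099 (-0.24 to 0.043) in Acta2 and -0.012 (-0.086 to 0.062) in Tpm1. The high minus mid differences were 0.52, 0.35, 0.48 and 0.24 in the same order, from a comparison that shares the mid AHA libraries. Vim, Zyx and Krt19 had mid minus low differences of 0.14, 0.16 and 0.094 (95% intervals 0.056 to 0.22, 0.037 to 0.29 and -0.033 to 0.22, none called), with high minus mid differences of 0.14, 0.17 and 0.31. Since the 7 genes were chosen by a comparison with the same low AHA libraries, their differences are a description and nothing is read from their sign. The median of all SRF and MRTF targets was -0.029 for mid minus low and 0.14 for high minus low AHA.

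**Figure D5:**
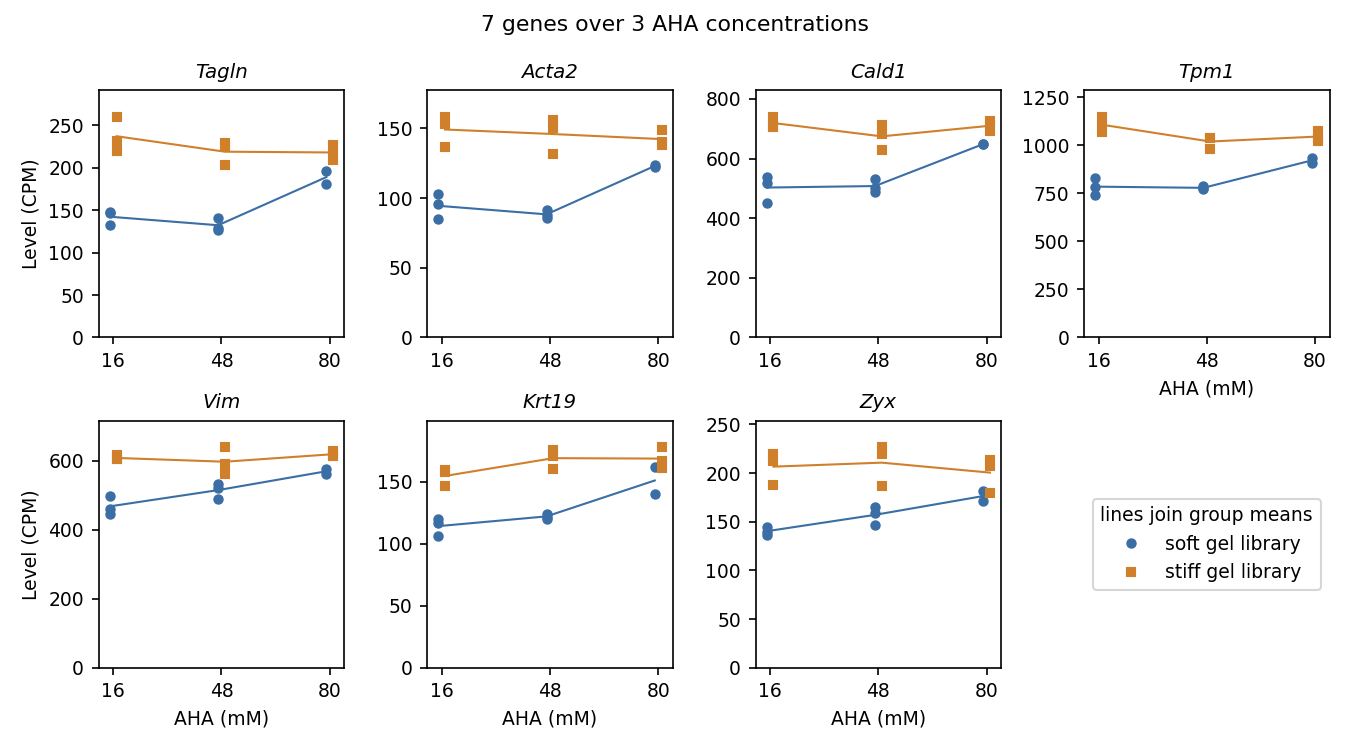
Level in CPM (y axis from 0) of 7 genes in each library against the AHA concentration in mM (x axis, points shifted slightly sideways), on soft (blue circles) and stiff (orange squares) gels, with lines joining group means. On soft gels Tagln, Acta2, Cald1 and Tpm1 have overlapping libraries at 16 and 48 mM and higher ones at 80 mM, where 2 libraries are shown.

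Genes that differed between soft and stiff gels were also followed through the step. At high AHA, 113 of 13438 genes (0.841%) were called between soft and stiff gels, a contrast that shares no library with the 6 studied here. Of the 55 that were higher on soft gels, 42 were higher at mid than at low AHA (median 0.065), and 8 of them were higher and 0 lower at an unadjusted p under 0.05. Esrrb and Apoe, described above, were among the 55, so this count is not separate from those results. Of the 58 that were lower on soft gels, 24 were higher at mid AHA (median -0.018), with 1 higher and 2 lower at an unadjusted p under 0.05. With ERCC scaling the 55 had a median of 0.18 with 53 higher, and the 58 had a median of 0.093 with 52 higher, next to a median of 0.11 over all genes. Choosing the genes with that scaling too gave 50 higher on soft gels (median 0.19) and only 6 lower on soft gels (median 0.11). The median of the 55 was 0.033 without low AHA replicate 3 and 0.031 without mid AHA replicate 2. That of the 58 was -0.039, -0.0041 and 0.012 without low AHA replicates 1, 2 and 3. None of the 113 was called between mid and low AHA, and the ends were Uap1l1 (0.44) and Bmp8b (-0.34).

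Genes outside the protein-coding class were examined in a fit of every gene class, which tested 16350 genes and called 0, with 572 higher (3.5%) and 460 lower (2.81%) at an unadjusted p under 0.05. The classes were described after their values were seen. Small nucleolar RNAs, which guide rRNA modification, had 85 of 96 tested genes lower at mid AHA, a median of -0.53, and 24 lower and 0 higher at an unadjusted p under 0.05. They took 0.0858, 0.0846 and 0.0821% of gene counts in the low AHA libraries and 0.0561, 0.0555 and 0.0697% in the mid AHA libraries, which did not overlap. The high AHA libraries took 0.0414 and 0.0840%, a spread within 1 group wider than the gap between low and mid AHA.

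Small nuclear RNAs, the splicing RNAs, had 15 of 17 lower (median -0.83), with 7 lower and 0 higher at an unadjusted p under 0.05. On stiff gels the medians for mid minus low AHA were -0.24 for small nucleolar and -0.49 for small nuclear RNAs. Gm24616, a small nucleolar RNA gene and the one with the smallest p of both classes, had 6.38, 3.38 and 3.52 counts per 1000000 gene counts at low and 2.16, 0.744 and 1.96 at mid AHA (-1.44, SE 0.37, adjusted p = 0.185). Among the 267 lincRNAs the median was -0.085 and among the 1489 processed pseudogenes -0.00035. Genes of the miRNA class took 3.66, 3.86 and 3.77% of gene counts at low and 2.59, 2.49 and 3.39% at mid AHA, without overlap, and 2.08 and 3.78% in the high AHA libraries. Of the 36 tested, 24 were lower (median -0.20), with 1 lower and 0 higher at an unadjusted p under 0.05. The protein-coding share of counts moved with these classes, as given above, and its part in them was not tested.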

How the data were processed

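RNA-seq libraries of 18 mESC samples (3 per group) were analysed from the deposited table, which holds raw read counts per gene that the authors made with HTSeq after trimming with Trim Galore 0.4.4 and alignment with GSNAP 2015-09-29 to mm10, per the labels. Whether counting used strand is not given in the sources used here. RNA was extracted with a column kit with a DNase step, and libraries were made with a pico-input mammalian kit. Groups were taken from the labels, and replicates were numbered in the order of the labels. Soft80 replicate 1 was left out of the fit because its ERCC share, 1.37%, was the highest.

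Protein-coding genes of GENCODE M21 (GRCm38) that passed edgeR's filterByExpr (minimum count 10) were fitted in 17 libraries with edgeR 4.0.16 (robust quasi-likelihood, TMM scaling, 1 coefficient per group) in R 4.3.3, and p-values were adjusted by Benjamini-Hochberg over all 13438 genes with a threshold of 0.05. CPM are counts scaled to a TMM-adjusted library size of 1000000. Sums of marker lists are instead counts per 1000000 protein-coding counts, without TMM scaling or the count filter. Intervals are Wald 95% intervals. DESeq2 1.42.0 was an alternative. Other alternatives were RLE and ERCC scaling, other count filters, other library sets and leaving out each library. The steps were tested on simulated data. Library measures were compared by exact two-sided permutation tests. Figures were drawn with matplotlib 3.10.9.

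Named genes were 64 chosen from the families, the 5 higher and 5 lower with the smallest p and a mean of at least 1 CPM, up to 10 called in any alternative with the smallest adjusted p there, the highest and lowest member of each family with a mean of at least 1 CPM, and the 3 chosen genes with the narrowest intervals. Genes of a family that separated the groups or define its role were added after their values were seen. Members and lists were chosen with earlier results of these data known. The values of 1 family and 1 chosen gene are not reported here, though counts over all families and chosen genes include them.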

Additional observations from a re-analysis of the deposited data

How the results depend on the processing

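No paired analysis was possible because the labels carry no replicate numbers, and those used here only name libraries in the order of the labels. Between mid and low AHA on soft gels, against 0 called genes, 1 was called with ERCC scaling, 4 with a filter of at least 2 counts and 8 in a fit of only the groups compared. Leaving out 1 library at a time gave 0 to 7 genes, with 7 without Soft48 replicate 3. The range was 0 to 1 on stiff gels, with 1 without Stiff16 replicate 1, and 0 to 4 for the interaction, with 4 without Stiff16 replicate 2. For the genes higher on soft than stiff gels at high AHA, the median was 0.19 over the 50 genes called so with ERCC scaling, against 0.065 over 55. For the genes lower on soft gels it was 0.11 over 6 genes with ERCC scaling, against -0.018 over 58. The causes were not tested. Over all alternatives, 500 family medians stayed within the spread between libraries and 74 moved beyond it, and for single genes 989 values stayed within their error, 83 moved and 19 came to pass the threshold, which no gene did in the analysis reported. The number of genes with an interval within 0.5 stayed within 1.5 times the reported count in the alternatives run. Depth was not varied, and its part in what was detected was not tested.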
